A study of Oryctolagus cuniculus with 8 samples.

Results

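CCT, also called TRiC, is the chaperonin of the cytosol, and the RNA of 4 of its subunits, TCP1, CCT2, CCT6A and CCT7, is described here in rabbit stem cells and somatic cells. The members were taken as every probe that is not a control and whose RefSeq accession belongs to one of these genes, which gave 9 probes. They are 4 of the 680 genes that could be named on the array. TCP1 had 1 probe, CCT2 had 4, CCT6A had 2 and CCT7 had 2. All 9 probes were well above background on all 8 arrays by the mark in the deposited files. CCT3, CCT4, CCT5, CCT8 and CCT6B had no probe that could be named and are not analysed here.

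The chaperonin is built from a pair of stacked rings, and each ring holds different but related subunits at fixed places around a central cavity. Newly made proteins, above all actin and tubulin, are folded inside that cavity in a cycle driven by ATP. TCP1 is the alpha subunit, CCT2 the beta subunit, CCT6A the main form of the zeta subunit and CCT7 the eta subunit. Since a ring needs each kind of subunit, the subunits are generally made together, and dividing cells, which make much actin and tubulin, are known to hold more of them.

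The samples were cultured cells of the Dutch rabbit, 1 array each. Induced pluripotent stem (iPS) cells, which are body cells reprogrammed to resemble cells of the early embryo, came from the line iPS-L1, of liver origin, at passages 7 and 23 and from the line iPS-S1, of stomach origin, at passages 6 and 22. The embryonic stem (ES) group held the lines rdES4 and rdES2-1. The somatic group held 1 culture of liver cells and 1 of stomach cells. Medium changed with cell type, iPS and ES cells having a stem cell medium and somatic cells their own, so the effects of medium and cell type cannot be told apart in any comparison with somatic cells. The labels name no reprogramming factors and leave unsaid whether the somatic cultures are the ones the iPS lines were made from, or whether samples of a group came from separate animals. The p-values therefore cover no more than the spread among these samples, which may be partly technical.

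Levels are given as the log2 intensity minus the log2 75th percentile of the same array, so that 0 is that percentile and 1 unit is a doubling. A level belongs to its own probe, and its height is not read as an amount against another probe. Gaps between genes are read only as shifts from somatic cells, and sums over a marker list follow their brightest probes. The 75th percentile was an intensity of 274 to 341 on the 6 stem cell (iPS and ES) arrays, against 163.5 on the liver cell array and 154.7 on the stomach cell array. The number of arrays limits the precision, with 2 lines or cultures in each group. Of 3 named markers of pluripotent cells, POU5F1 and PODXL were called higher in iPS and ES than in somatic cells, and KLF5 did not pass, with differences of -0.84 in iPS and -0.82 in ES cells. POU5F1, a transcription factor of pluripotent cells, ranged from 7.08 to 7.62 on iPS arrays and was 7.14 and 6.69 on ES arrays, against -3.62 in liver cells and -3.46 in stomach cells. ALB, which hepatocytes are known for, and ATP4B, of acid-secreting stomach cells, were not well above background on any array, the somatic ones included. Other genes of the 2 tissue lists were present there: RBP4, a retinol carrier made by hepatocytes, was at 1.89 in liver cells and 3.75 in stomach cells, and CTSE, a protease of stomach epithelium, was at 2.46 in liver cells and 0.32 in stomach cells and well above background on the somatic arrays alone. DCN, a matrix gene of fibroblasts, was at 4.44 in liver cells and 5.42 in stomach cells and was not well above background in ES or iPS cells.

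TCP1, the alpha subunit, was high and even across the stem cells. Its levels were 7.43 (passage 7) and 7.42 (passage 23) in the liver iPS line, 7.47 (passage 6) and 7.52 (passage 22) in the stomach iPS line, and 7.39 in rdES4 and 7.36 in rdES2-1, against 6.67 in liver cells and 6.42 in stomach cells. The deposited intensities behind these levels ran from 45893 to 58729 on the stem cell arrays, against 16707 and 13221 on the somatic arrays. Every stem cell array lay above both somatic arrays, and the lowest of them exceeded the highest somatic one by 0.68. Such separation was common: all iPS arrays lay above both somatic arrays on 39.7% of all tested probes, and both ES arrays on 43.4%. The share for iPS and ES arrays together was not counted.

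CCT2, the beta subunit, was read by 4 probes, of which A_04_P007430 was the brightest and stands for the gene. On this probe the levels were 5.68 and 5.63 in the liver iPS line at the early and late passage, 5.76 and 5.65 in the stomach iPS line, and 5.62 and 5.80 in rdES4 and rdES2-1, against 4.47 in liver cells and 4.33 in stomach cells. The gap between the lowest stem cell array and the highest somatic array was 1.16, the widest of the 4 genes on the probes that stand for them. Probe A_04_P007426 gave 4.002 to 4.45 on the 6 stem cell arrays, against 3.34 and 3.10 on the somatic arrays, and probe A_04_P007427 gave 1.80 to 2.08, against 0.95 and 0.55. The remaining probe, A_04_P007429, was dim, with intensities of 31 to 107 on stem cell arrays, against 23 and 14 on somatic arrays. There rdES4, at -3.15, lay between liver cells at -2.83 and stomach cells at -3.43, and the groups overlapped.

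CCT6A, the zeta subunit, stands on A_04_P000617 in the tests. This probe gave 5.18 and 5.24 in the liver iPS line at the early and late passage, 5.08 and 4.75 in the stomach iPS line, and 5.10 and 5.19 in rdES4 and rdES2-1, against 4.25 in liver cells and 4.10 in stomach cells. The late stomach iPS array was the lowest of the stem cell arrays and still lay 0.50 above liver cells. The other probe of the gene, A_04_P000616, was brighter but was left out, because its single spot was marked as uneven on that same late stomach iPS array, where it read 1138 against 16167 at the early passage of the line. On the 7 arrays without a mark it gave 5.57 to 5.73 in stem cells, against 4.57 in liver cells and 4.59 in stomach cells, with no overlap.

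CCT7, the eta subunit, was at 6.13 and 6.11 in the liver iPS line at the early and late passage, 6.16 and 6.29 in the stomach iPS line, and 5.96 and 5.98 in rdES4 and rdES2-1, against 5.06 in liver cells and 4.84 in stomach cells (probe A_04_P029256). Its other probe, A_04_P102532, gave 4.57 to 4.93 on stem cell arrays, against 3.51 and 3.34 on somatic arrays. Both probes kept the stem cells apart from the somatic cells. All 4 iPS arrays lay above both ES arrays on the first probe, and the groups overlapped on the second.

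**Figure D1:**
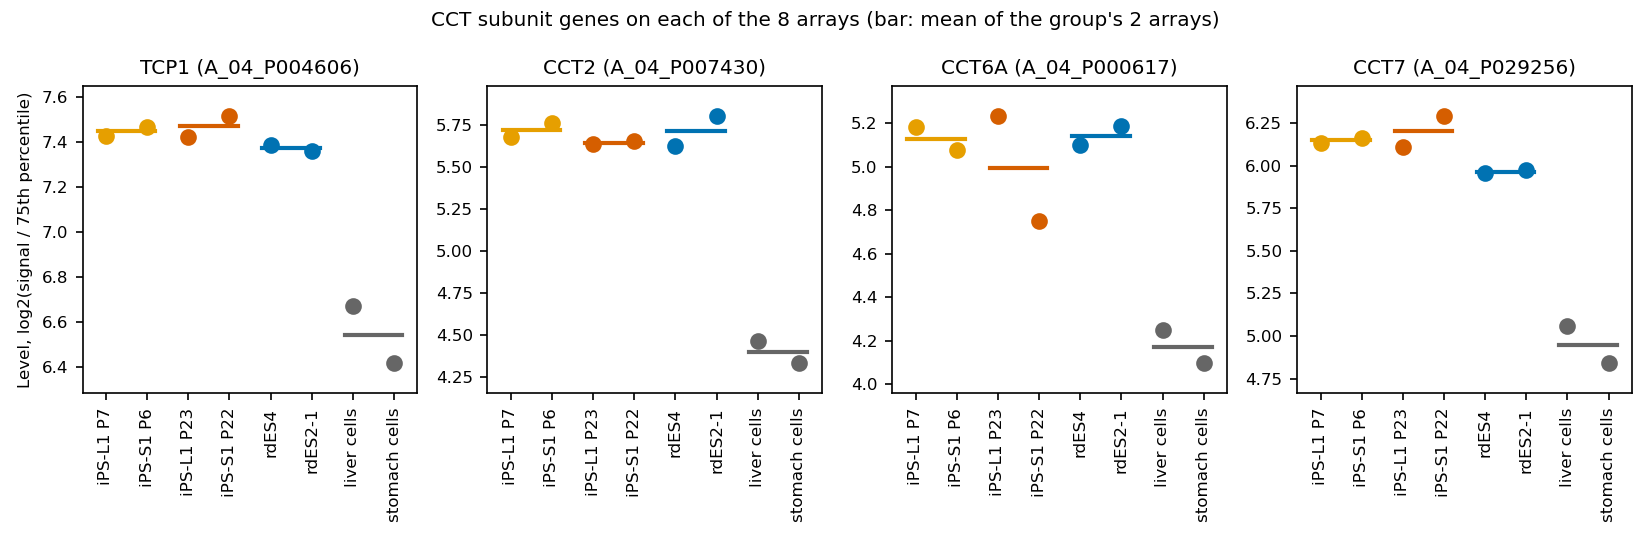
Level of each CCT gene on the probe that stands for it (log2 intensity relative to the 75th percentile of the array, with an own axis range in each panel), 1 point per array, for early iPS, late iPS, ES and somatic cells, with a bar at the mean of each pair. In each panel the 6 stem cell points lie above both somatic points, from 0.50 (CCT6A) to 1.16 (CCT2) above the higher of them, and the late stomach iPS point of CCT6A at 4.75 is the lowest stem cell point of that gene.

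**Figure D2:**
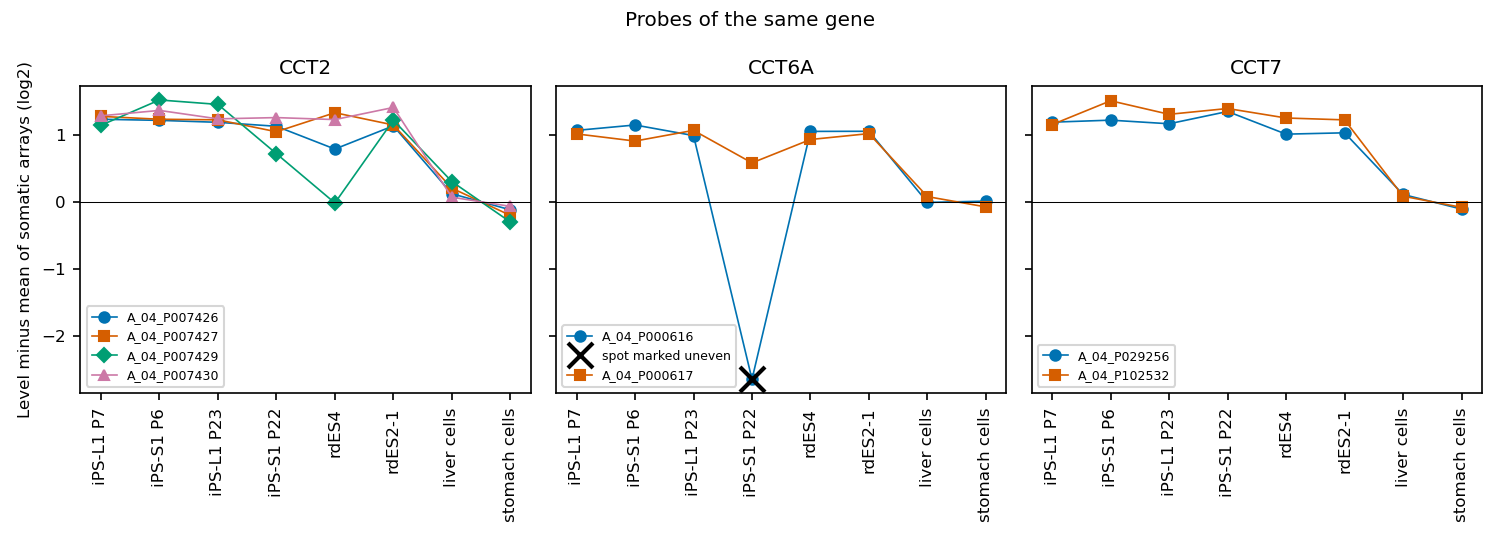
Level of the 8 probes of CCT2, CCT6A and CCT7 on each array, as the difference from the mean of the 2 somatic arrays on the same probe (log2), 1 line per probe, with a cross on the spot marked as uneven. The probes of a gene run together, except for the dim CCT2 probe A_04_P007429, on which rdES4 falls to the somatic level, and for the marked CCT6A spot.

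The first question was whether reprogrammed cells differ in CCT RNA from the somatic cell types they were made from. All 4 genes were higher in iPS than in somatic cells. CCT2 averaged 5.68 ± 0.035 in iPS cells and 4.40 ± 0.096 in somatic cells (SD, n = 2 each, the arrays of a line being averaged), a difference of 1.28 ± 0.14 (SE), or 2.43-fold, with a limma adjusted p of 0.00115. CCT7 averaged 6.18 ± 0.075 in iPS and 4.95 ± 0.15 in somatic cells, a difference of 1.23 ± 0.14 or 2.34-fold (limma adjusted p 0.00137). TCP1 averaged 7.46 ± 0.047 in iPS and 6.55 ± 0.18 in somatic cells, 0.91 ± 0.15 apart, which is 1.88-fold (limma adjusted p 0.004). CCT6A averaged 5.06 ± 0.21 in iPS and 4.17 ± 0.11 in somatic cells, 0.89 ± 0.16 apart or 1.85-fold (limma adjusted p 0.00611).

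Of the 8 tested probes of the genes, 7 passed at an adjusted p under 0.05, all higher in iPS cells. The 95% intervals ran from 0.93 to 1.64 for CCT2, 0.87 to 1.59 for CCT7, 0.54 to 1.29 for TCP1 and 0.48 to 1.30 for CCT6A. The second CCT7 probe differed by 1.34 and the CCT2 probes A_04_P007426 and A_04_P007427 by 1.19 each. The dim CCT2 probe A_04_P007429 had a difference of 1.21 ± 0.45 and did not pass (limma adjusted p 0.0633). On all 8 probes every iPS array lay above every somatic array.

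These calls stand in a comparison in which most probes changed. Of 28854 tested probes, 66.6% passed in either direction, 34.2% being higher and 32.4% lower in iPS cells, and on 39.7% every iPS array lay above every somatic array. Among the 511 tested genes with a name, 22.1% were higher. The median difference of the 4 genes was 1.07, against 0.017 over all tested probes. In size the genes were not extreme: 79.9% of all tested probes had a smaller signed difference than CCT2, 78.9% than CCT7, 72.4% than TCP1 and 71.9% than CCT6A. In bulk samples such as these, fewer cells of a type and less RNA per cell cannot be told apart.

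Each iPS line also exceeded the somatic cells of its own tissue. In the liver pair the iPS mean minus the somatic level was 1.19 for CCT2, 1.07 for CCT7, 0.96 for CCT6A and 0.75 for TCP1. In the stomach pair it was 1.38 for CCT2, 1.39 for CCT7, 0.82 for CCT6A and 1.07 for TCP1. The stomach pair had the larger difference for 3 genes and the liver pair for CCT6A, which was not tested.

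The arrays were on 3 slides, each with a scan of its own. Slide 1 held both arrays of the liver iPS line, rdES4 and the liver cells, slide 2 held rdES2-1 and the stomach cells, and slide 3 held both arrays of the stomach iPS line. Slide 1 alone gave the differences of the liver pair above, and the stomach iPS line shared its slide with no other group. A block for slide therefore takes up the stomach iPS line whole, and the iPS value then rests on the liver iPS line. With slide as a block the difference was 1.27 for CCT2 (limma adjusted p 0.0455), which still passed. It was 1.12 for CCT7 (0.0517), 1.02 for CCT6A (0.061) and 0.81 for TCP1 (0.0899), which did not, while the probes called over the array numbered 9918.

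The 2nd comparison set ES cells against the same somatic cells, so the somatic arrays are shared with the comparison above. All 4 genes were higher in ES cells too. CCT2 averaged 5.71 ± 0.13 in ES and 4.40 ± 0.096 in somatic cells (SD, n = 2 each), a difference of 1.31 ± 0.14 or 2.49-fold (limma adjusted p 0.00108). CCT7, at 5.97 ± 0.014 in ES cells, was 1.02 ± 0.14 or 2.02-fold higher (limma adjusted p 0.00259). CCT6A, at 5.14 ± 0.062, was 0.97 ± 0.16 or 1.96-fold higher (limma adjusted p 0.0047), and TCP1, at 7.37 ± 0.021, was 0.83 ± 0.15 or 1.78-fold higher (limma adjusted p 0.00576).

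Again 7 of the 8 tested probes passed, against 34.3% of all tested probes called higher in ES cells and 63.9% called in either direction. On 7 of 8 probes both ES arrays lay above both somatic arrays, against 43.4% of all tested probes. The dim CCT2 probe differed by 0.60 ± 0.45 (limma adjusted p 0.29). The median difference of the 4 genes was 0.99, against 0.068 over all tested probes. Within slide 1 ES minus somatic was 1.16 for CCT2, 0.90 for CCT7, 0.85 for CCT6A and 0.71 for TCP1, and within slide 2 it was 1.47 for CCT2, 1.14 for CCT7, 1.09 for CCT6A and 0.94 for TCP1. Each gene thus had the same sign on both slides.

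**Figure D3:**
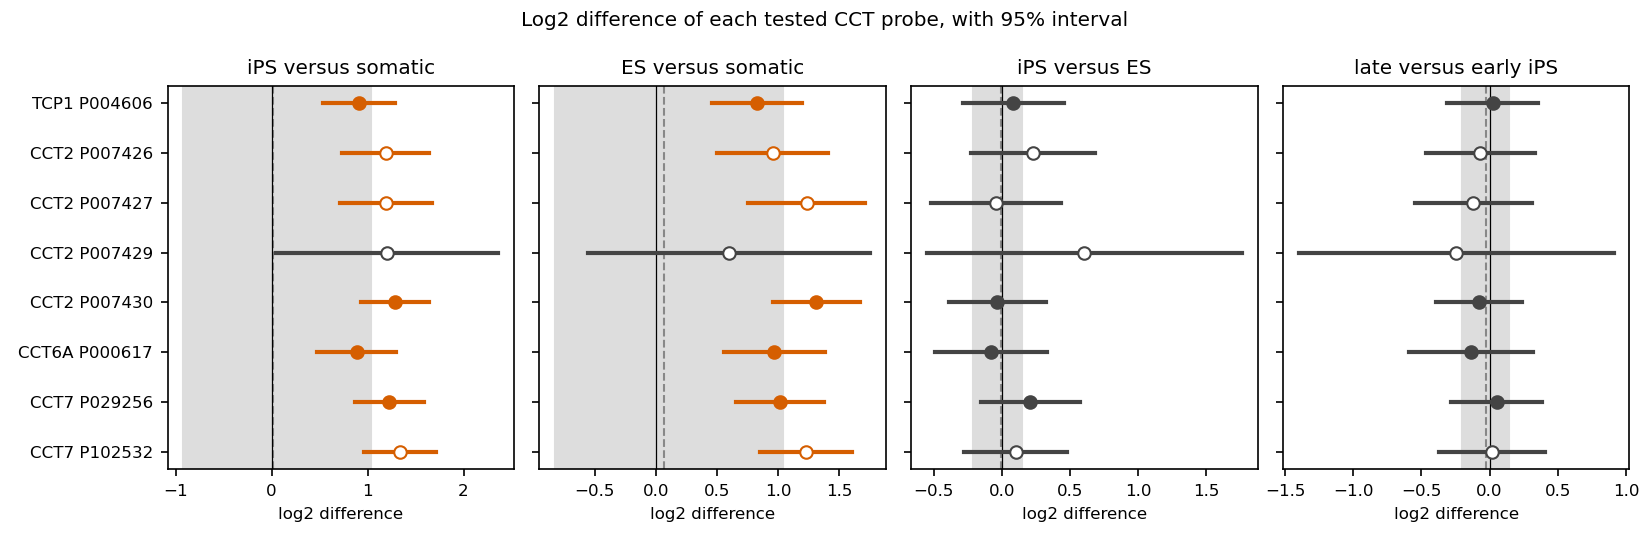
Log2 differences of the tested CCT probes in the 4 comparisons, with 95% intervals, over a grey band for the middle 50% of all tested probes and a dashed line at their median. Filled points are the probes that stand for the genes and orange marks probes called higher. Against somatic cells the 4 genes lie between 0.83 and 1.31, and between iPS and ES cells or late and early iPS cells all intervals include 0.

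iPS and ES cells were then compared with each other. None of the 4 genes passed. The difference was 0.21 for CCT7 (95% interval -0.15 to 0.57), 0.085 for TCP1 (-0.29 to 0.46), -0.032 for CCT2 (-0.39 to 0.32) and -0.082 for CCT6A (-0.49 to 0.33), with limma adjusted p of 0.816 to 0.981. The data thus leave room for a difference of up to 0.57 in CCT7. On 2 of the 8 tested probes, those standing for TCP1 and CCT7, all iPS arrays lay above both ES arrays, against 10.6% of all tested probes. limma called 0% of the tested probes in this comparison, while 7.41% had an unadjusted p under 0.05, none of the 8 CCT probes among them.

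The last comparison asked whether CCT RNA differed between late and early passage iPS cells. None of the 4 genes passed, and 0.0277% of all tested probes did, which is 8 probes. CCT6A differed by -0.14 (95% interval -0.59 to 0.32), CCT2 by -0.076 (-0.39 to 0.24), CCT7 by 0.053 (-0.28 to 0.39) and TCP1 by 0.022 (-0.31 to 0.35), with limma adjusted p of 0.91 to 0.988. In the liver line late minus early was 0.053 for CCT6A, -0.045 for CCT2, -0.024 for CCT7 and -0.0066 for TCP1. In the stomach line it was -0.33 for CCT6A, -0.11 for CCT2, 0.13 for CCT7 and 0.050 for TCP1, so CCT2 was the one gene with the same sign in both lines. The passages taken singly gave like values against somatic cells. Late iPS cells were higher by 1.25 (CCT7), 1.24 (CCT2), 0.92 (TCP1) and 0.82 (CCT6A). Early ones were higher by 1.20, 1.32, 0.90 and 0.96 in the same order of genes. All 8 differences passed. In these fits 9984 (late) and 10256 (early) of the 28854 tested probes were called higher.

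In order of level, CCT7 ran from iPS to ES to somatic cells, TCP1 likewise, and CCT2 and CCT6A from ES to iPS to somatic cells. In each order the step between iPS and ES cells did not pass the test, and the step to somatic cells did. Stomach cells were lower than liver cells on all 8 tested probes, by 0.14 to 0.60, against 50.4% of all tested probes, and on the left-out CCT6A probe they were 0.019 higher. With 1 culture of each tissue this has no test. Among the probes that stand for the genes the drop was 0.26 for TCP1, 0.22 for CCT7, 0.15 for CCT6A and 0.14 for CCT2.

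The spread among the 6 stem cell arrays differed between the genes and probes. The range from lowest to highest array was 0.16 for TCP1, a smaller range than that of all but 1.9% of the tested probes, and 0.18 for CCT2, with 3.32% below it. CCT7 had a range of 0.34 (22.4% of probes below it) and CCT6A of 0.48 (42.1%), against a median range of 0.56. The dim CCT2 probe spread over 1.53, with 89.9% of probes below it.

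Gaps between the genes were compared within each array for the 6 pairs. With 4 stem cell lines against 2 somatic cultures the exact permutation test cannot give a p below 0.0667. No pair could therefore pass the threshold, and the test cannot decide whether a gap differs between stem cells and somatic cells. Taken within each array, the CCT2 level minus the TCP1 level was 0.28 to 0.59 above its somatic mean on the 6 stem cell arrays, against -0.060 and 0.060 on the somatic arrays. The mean shift was 0.43 over 4 stem cell lines against 2 somatic cultures (exact two-sided permutation test, p = 0.0667, which is the smallest p this design allows). CCT7 minus TCP1 shifted by 0.25 and CCT6A minus CCT2 by -0.37, both without overlap of the arrays and with the same exact p, and the adjusted p over the 6 pairs of genes was 0.133 for all 3. How often pairs of genes outside CCT separate in this way was not tested. The remaining CCT pairs shifted by 0.060 (CCT6A minus TCP1), -0.18 (CCT7 minus CCT2) and 0.19 (CCT7 minus CCT6A), with exact permutation p of 0.733, 0.2 and 0.4. The late stomach iPS array lay farthest out in all 3 pairs with CCT6A, and without it CCT6A shifted by 0.11 against TCP1 and by -0.34 against CCT2, and CCT7 by 0.13 against CCT6A.

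These gaps depended on how the arrays were brought to a scale. Quantile normalisation, which gives all arrays the same distribution of values, reduced the shift of CCT2 against TCP1 to 0.17 and that of CCT7 against TCP1 to 0.068, and normexp background correction with quantile normalisation gave 0.12 and 0.070. CCT6A minus TCP1 changed sign, to -0.24 and -0.20 under those settings. CCT6A minus CCT2 was -0.41 and -0.33 and was the one pair whose stem cell and somatic arrays did not overlap under either of them or on the 75th percentile scale. A gap within an array is the same without scaling, by construction. The gap of CCT6A and CCT2 also rests on 1 probe per gene: by its brighter probe CCT6A differed from somatic cells by 1.08 in iPS and 1.05 in ES cells, and CCT2 as the mean over its probes by 1.22 in iPS and 1.03 in ES cells, against 1.28 and 1.31 on the probe that stands for it.

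**Figure D4:**
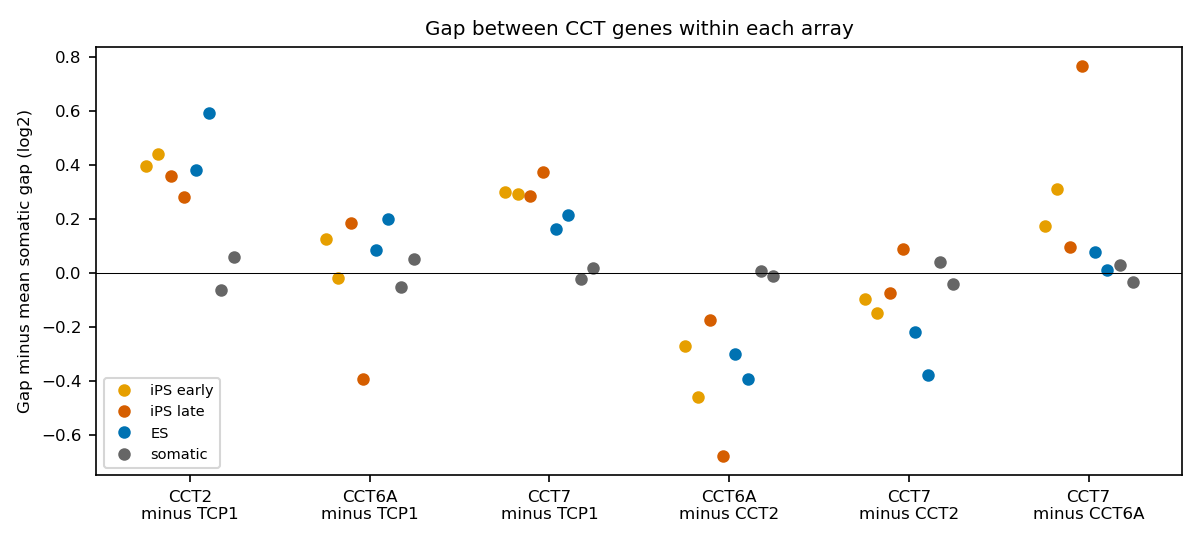
Gap between 2 CCT genes on the same array (log2, relative to the mean of the somatic arrays) for the 6 pairs, 1 point per array, with stem cell arrays left of somatic arrays. CCT2 minus TCP1 and CCT7 minus TCP1 lie above the somatic points on all stem cell arrays and CCT6A minus CCT2 below them, with mean shifts of 0.43, 0.25 and -0.37.

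Scale mattered for the size of the differences from somatic cells, not for their sign. With no scaling between arrays the median of all tested probes was 1.03 higher in iPS than in somatic cells, and CCT2, CCT7, TCP1 and CCT6A were higher by 2.29, 2.24, 1.92 and 1.90. Relative to that median these are 1.27, 1.21, 0.90 and 0.87. ES cells without scaling were higher by 2.19 (CCT2), 1.89 (CCT7), 1.85 (CCT6A) and 1.70 (TCP1), with a median of 0.94. Quantile normalisation moved the median to 0.11 for iPS and 0.14 for ES cells, and the genes differed by 0.93 to 1.39 and by 1.09 to 1.48. TCP1 moved most, with 1.29 after quantile normalisation and 1.42 after normexp in iPS against somatic cells. Of all calls between iPS and somatic cells 51.4% were higher, against 82.5% without scaling and 38.7% without a filter on dim probes. For ES cells the shares were 53.6%, 81.4% and 40%.

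**Figure D5:**
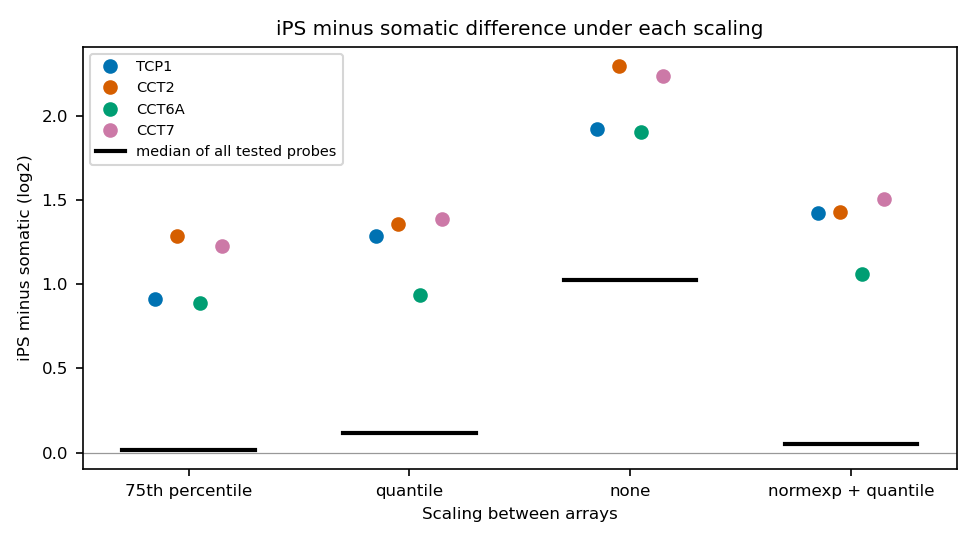
Difference of each CCT gene between iPS and somatic cells (log2, points) under 4 ways of bringing the arrays to a scale, with the median of all tested probes as a bar. Under no scaling the genes lie at 1.90 to 2.29 and the median at 1.03, and under the other settings the genes lie at 0.89 to 1.50, with CCT6A the lowest of the 4 throughout.

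The genes with which CCT works were mostly without a named probe. Of 20 client genes, whose proteins CCT folds or binds, 3 were named and tested. ACTB, cytoplasmic actin, was at 7.64 to 7.92 in iPS cells and 7.81 and 7.77 in ES cells, against 8.65 and 8.54 in somatic cells. Its difference was -0.86 ± 0.14 in iPS cells (limma adjusted p 0.00393) and -0.80 ± 0.14 in ES cells (0.00518), but its direction hung on the scale. After quantile normalisation it was -0.043 in iPS cells (adjusted p 0.807), after normexp -0.057 (0.68), and without scaling 0.15 (0.498). ACTA2, smooth muscle actin, was lower, with differences of -5.64 in iPS cells (limma adjusted p 0.00225) and -7.99 in ES cells (0.000759), and was lower under all 4 settings. PPP4C, a phosphatase subunit, differed by -0.19 in iPS cells (limma adjusted p 0.263) and -0.22 in ES cells (0.214) and passed in neither, although without scaling it was higher in both.

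Among 33 other chaperones, 5 were named and tested. Between iPS and somatic cells 2 were higher, 2 lower and 1 did not pass, with a median of 0.53, against 0.017 over all tested probes. FKBP4, a partner of HSP90 in the folding of steroid receptors, was at 4.49 to 4.61 in iPS and 4.40 and 4.49 in ES cells, against 1.83 and 1.95 in somatic cells. It was higher by 2.68 ± 0.13 in iPS cells (limma adjusted p 0.000162) and by 2.55 ± 0.13 in ES cells (0.000175), a larger difference than that of any of the 4 CCT genes, and passed under all 4 settings. PPIA, a prolyl isomerase of the cytosol, was higher by 0.53 in iPS cells (limma adjusted p 0.024) and differed by 0.36 in ES cells (0.0799), where it passed under the other 3 settings.

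CALR, a chaperone of the endoplasmic reticulum, was lower, with differences of -1.35 in iPS cells (limma adjusted p 0.00326) and -1.004 in ES cells (0.00909), but did not pass without scaling, at -0.34 (0.157) and -0.13 (0.56), nor in ES cells after quantile normalisation, at -0.23 (0.239), or after normexp (0.175). CRYAA, a small heat shock protein, differed by -2.16 in iPS cells (limma adjusted p 0.00419) and by -2.27 in ES cells (0.00369) and was lower under all 4 settings. CRYAB, of the same family, differed by 0.88 in iPS cells (limma adjusted p 0.152) and -0.54 in ES cells (0.357), and was called higher in iPS cells without scaling, at 1.89 (0.00922). None of the 8 client and chaperone genes passed between iPS and ES cells or between late and early iPS cells. No gene of the lists for prefoldin and CCT cofactors, tubulin cofactors, heat shock factors or proliferation had a named probe, so the growth rate of the cultures was not tested through them.

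Summed marker levels separated the stem cells from the somatic cells in each list but that for hepatocytes, where they overlapped. Below, the somatic sums of a list run from the lower to the higher culture, not from liver to stomach cells. Of 9 pluripotency markers 3 were named, and their summed level, in multiples of the 75th percentile, was 295 to 353 in iPS and 262 to 339 in ES cells, against 0.20 and 5.24 in somatic cells. That sum follows POU5F1 and PODXL, while KLF5 was at a mean of -4.58 in iPS and -4.55 in ES cells, against -3.74 in somatic cells. All 4 named markers of the 9 for fibroblasts and mesenchyme were lower in iPS and ES cells, with sums of 2.08 to 3.14 in iPS and 1.88 to 2.21 in ES cells, against 106 and 198 in somatic cells. The 5 named smooth muscle markers summed to 30.7 to 49.3 in iPS and 25.3 to 35.8 in ES cells, against 98.1 and 254 in somatic cells. The same sums were 3.43 to 5.94 in iPS and ES cells, against 4.66 and 20.0 in somatic cells, for 7 hepatocyte markers. For 4 stomach markers they were 0.14 to 0.20, against 1.37 and 5.64 in somatic cells. The somatic stomach sums follow CTSE alone, at a log2 level of 2.46 in liver cells and 0.32 in stomach cells. ATP4A, ATP4B and PGC were far lower there. For 4 blood markers the sums were 0.31 to 0.62, against 0.93 and 1.90 in somatic cells. The higher somatic sum was in stomach cells for hepatocyte markers and in liver cells for each of the other lists. Single members ran the other way: ATP4A was called higher in iPS (0.73) and ES cells (0.78), PGC in ES cells (0.60), and TF in iPS (2.95) and ES cells (4.05). After normexp ATP4A differed by 0.23 in both and did not pass (limma adjusted p 0.0526 in iPS and 0.0578 in ES cells). It was not well above background in liver cells. The part of the makeup of the cultures in the CCT differences was not tested.

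Genes with a like pattern were ranked over the 8 arrays by the root mean square distance of their centred profiles from the mean of the 4 CCT genes. Of 507 other named genes the nearest was PCBP1, an RNA-binding protein, at 0.073, followed by DYNLL1, a dynein light chain, at 0.079. Then came EIF4E, which binds the mRNA cap, at 0.11, SLC46A1, a folate transporter, at 0.13, PPP1CB, a catalytic phosphatase subunit, at 0.13, and HPRT1, of purine salvage, at 0.14. The median distance of a named gene was 0.90. All 6 were higher than in somatic cells by 0.99 to 1.29 in iPS and 0.97 to 1.28 in ES cells. This follows from picking genes near the CCT mean on the same arrays and is no separate result.

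The CCT genes were about as far from their own mean, although each is a part of it: TCP1 at 0.094, CCT7 at 0.10, CCT2 at 0.11 and CCT6A at 0.14. CCT6A had 8 other genes nearer to that mean than itself, and each of the others had 2. Between pairs the distance was 0.13 for TCP1 and CCT7, 0.14 for CCT2 and CCT7, 0.18 for TCP1 and CCT6A, 0.20 for TCP1 and CCT2, 0.21 for CCT2 and CCT6A and 0.24 for CCT6A and CCT7. Taken singly, the nearest other genes were SGCB (0.11) and DYNLL1 (0.11) for TCP1, ODF2 (0.081) and PPP1CB (0.11) for CCT2, CUL5 (0.15) and ATP4A (0.15) for CCT6A, and DYNLL1 (0.070) and YWHAQ (0.084) for CCT7. Each of the 4 therefore had at least 1 other gene nearer to it than any fellow subunit. That sets the nearest of 507 genes against the nearest of a few subunits, so it cannot show whether the subunits run together. All distances rest on the same 8 arrays and mostly on the step between stem cells and somatic cells.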

How the data were processed

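RNA of 8 cultures was labelled with Cy3 and read on 1-colour Agilent arrays, per the labels' protocols. Per the file headers, the deposited intensities were written by Agilent Feature Extraction 10.5.1.1 after background subtraction, with uneven spots marked and arrays not scaled to each other. The authors' deposited value table was on a log2 scale and matched these intensities, scaled to the 75th percentile and centred per probe on its median (r of 0.99995 or more; medians -0.042 to 0.342); it served as an alternative.

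From the intensities, log2 minus the 75th percentile of the array was computed here over probes that are not controls. Of 45220 spots 1417 were controls, and 50 probes had 5 spots each, which were averaged, leaving 43603 probes. Marked spots were dropped, which left out 19 probes. Probes well above background on both arrays of at least 1 group were tested (28854). Names came from RefSeq's rabbit table of assembly mOryCun1.1, matched by accession. The tested probe with the highest mean level stands for a gene. The named genes were the 4 members, every measured gene of the lists, the 6 nearest in pattern and the 2 nearest each member. Members and lists were chosen with earlier results of these data known.

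limma 3.58.1 in R 4.3.3 gave moderated two-sided tests, adjusted by Benjamini-Hochberg over all tested probes, at a threshold of 0.05. The passages of an iPS line were averaged (6 units, 3 groups), except for late against early (8 arrays, 4 groups). The code was tested on simulated data in which few probes were changed. Of those changed by 1 (log2), 8% passed in iPS and 5% in ES against somatic cells. In iPS against ES cells 1% of them passed, and in late against early cells 20%. Of probes changed by 2, 57% to 65% passed. A change of 1 was thus mostly missed there. The same line number marks a shared line for early and late iPS arrays (r of their deviations 0.22); iPS lines and somatic cultures share a tissue only (r 0.021 and 0.013). Alternatives were quantile normalisation, no scaling, normexp (offset 50), other filters, the authors' table, slide or line as a block, only the groups compared, each passage alone, the mean over probes of a gene and each array left out. The files hold no mean signal, so normexp used the median signals of spot and background. Sequences are not shown, and no coordinates are given.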

Additional observations from a re-analysis of the deposited data

Results flagged for a closer look

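Late minus early passage had opposite signs in the 2 iPS lines for 3 of the 4 genes on the probes that stand for them. TCP1 differed by 0.050 in the stomach line and -0.0066 in the liver line. CCT7 differed by 0.13 in the stomach line and -0.024 in the liver line, and CCT6A by -0.33 in the stomach line and 0.053 in the liver line. Each value is 1 array against 1 array, and the difference between the lines was not tested. Over all tested probes the SD of the same difference was 0.54 in the stomach line and 0.57 in the liver line. It was below 0 on 53% of probes in the stomach line and 53.3% in the liver line. The share of all probes with opposite signs in the 2 lines was not counted.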

How the results depend on the processing

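In iPS against somatic cells the 4 genes passed in 81 of 84 alternative fits, at 0.78 to 2.29, the exceptions being TCP1 (0.81), CCT6A (1.02) and CCT7 (1.12) with slide as a block, where 1 gene and 9918 probes were called. In ES against somatic cells they passed in 72 of 72, at 0.70 to 2.19. Some of these fits leave 1 sample in a group, which is then assumed to vary like the other groups. The fits are not all distinct, so the tallies count some results more than once. In iPS against somatic cells, leaving out either ES array gave the same fit as keeping only the groups compared. TCP1 and CCT6A had 1 tested probe each, so their mean over probes was that probe. The genes passed in 0 of 80 between iPS and ES cells and 0 of 76 between late and early iPS cells. With the line or tissue as a replicate block, adjusted p against somatic cells was 0.00394 to 0.00962 at the same differences, and no other call changed.

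Between iPS and ES cells the sign turned for CCT2 without scaling (0.10), as the mean over probes (0.19) and with early arrays alone (0.0061), for CCT6A without scaling (0.054), with slide as a block (0.049) and by its brighter probe with the marked spot missing (0.035, chosen after seeing the data), and for TCP1 with slide as a block (-0.020). That probe gave 1.08 against somatic cells. Leaving out 1 array gave -0.12 to 0.058 for CCT2. Between late and early cells it gave -0.026 to 0.069 for TCP1, -0.38 to 0.11 for CCT6A and -0.039 to 0.14 for CCT7, the lowest for TCP1 and CCT7 and the highest for CCT6A being without the late stomach iPS array. Probes called between iPS and ES cells numbered 2 without scaling, 12 with early and 6 with late arrays alone. Between late and early cells there was 1 after normexp, 0 with no filter, with the strict filter, with slide as a block or with only the groups compared, and 0 to 1 when 1 array was left out. The cause was not tested. Intervals of the differences limit what 2 lines or cultures a group can show.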
